A study of Mus musculus with 30 samples.

Results

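H3K27ac peaks listed only after 120 h without estradiol (E2) were taken from chromatin immunoprecipitation with sequencing (ChIP-seq) of mouse C57BL/6 cells labelled ER-Hoxa9-Lys-GFP, which grow in RPMI medium with fetal bovine serum and medium conditioned with stem cell factor. They carry HOXA9 joined to the hormone-binding part of the estrogen receptor (ER), so that the factor works while E2 is given, and a green fluorescent protein reporter at the lysozyme gene. Every group below carries both. The groups were cells kept in E2, cells without E2 for 120 h, and cells without E2 for 24, 40, 56 or 72 h and then back in E2 for 96, 80, 64 or 48 h, so that the time back in E2 shortened as the withdrawal lengthened and their effects cannot be told apart. E2 was removed by washing. The sources used here do not say whether the cells were 1 clone. Below, 24, 40, 56 and 72 h name the withdrawal that came before E2 was restored, and 120 h the withdrawal with no return of E2. The lists are thus not successive times of 1 withdrawal.

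Of the 48710 H3K27ac peaks at 120 h, 22529 (46.3%) were members of the set. They were selected on presence and absence in the deposited lists: a member overlapped no peak of the E2, 24 h, 40 h or 72 h list by 1 bp or more. The member count is thus a product of the rule and is a description. Each condition had 1 library, so nothing below has a replicate check and no p-value is given. The 95% intervals, exact (Clopper-Pearson) for shares and Newcombe's for differences, cover the counting of peaks only, and neighbouring peaks are not independent. The lists hold positions with no height or score, and the sources used here give no read depth. The coordinates fit the mouse build mm9, for which no gene table or sequence was used here, so places are given by position, with no gene names, and the cell type was not checked against marker genes.

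H3K27ac is the acetyl group that the related enzymes CBP and p300 place on lysine 27 of histone H3 at active promoters and enhancers. H3K27me3, placed on the same lysine by Polycomb repressive complex 2, marks silenced developmental genes, and 1 lysine cannot carry both at once. HOXA9 holds blood progenitors in a growing, immature state. In myeloid cells, enhancers that lie in dense runs over long stretches of DNA often surround genes of the mature cell. A peak caller can split such a run into many narrow peaks.

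The other 120 h peaks fell into 3 classes that serve for comparison. Peaks that overlapped an E2 peak, called kept from E2, numbered 16750. Peaks absent from E2 and present at 72 h numbered 6440 and are called gained and found at 72 h. The remaining 2991 were absent from E2 and from 72 h and present at 24 or 40 h. The 120 h list was the longest of the 6 H3K27ac lists, which in order of withdrawal from E2 to 72 h held 27876, 36845, 28791, 6356 and 24930 peaks. It covered 21.5 Mb against 10.7, 14.7, 10.6, 1.999 and 8.22 Mb.

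Peaks listed in a single one of the 5 lists of the rule made up a larger share at 120 h than elsewhere. Against 46.3% at 120 h, such peaks were 14.8% of the E2 list, 13.3% of the 24 h list, 4.60% of the 40 h list and 4.505% of the 72 h list. With each list cut to its 24930 widest peaks, the share was 35.6% (8869 peaks) at 120 h, and 18.8, 9.09, 6.67 and 10.2% in the E2, 24 h, 40 h and 72 h lists. The part that library depth has in these shares was not tested.

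The rule has a sharp edge, and many members lay near it. The closest member touched a peak of another list with 0 bp between them, and 36 members lay within 10 bp of one. Just outside the rule, 2 peaks shared only 2 bp with another list and 20 shared at most 10 bp. Within 1 kb of a peak in any of the 4 lists lay 7137 members (31.7%), and the median distance was 3065 bp. The 72 h list came nearest, with a peak within 1 kb of 22.1% of members, against 18.4% for 24 h, 13.5% for E2 and 13.3% for 40 h. Other edges gave other counts: 26488 peaks were only at 120 h when another list had to cover 50% of a peak, and 15393 when any peak within 1 kb counted as present.

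The members were narrow. Their median width was 257 bp (255 to 260), against 428.5 bp (422 to 435) for peaks kept from E2, 394 bp (387 to 401) for peaks gained and found at 72 h and 271 bp (266 to 277) for those found at 24 or 40 h only. The middle of the distribution ran from 187 to 397 bp (quartiles), the narrowest members were 146 bp wide, the lowest width in every list used, and the widest was 3729 bp. Members wider than 1 kb numbered 581 (2.58%), against 11.4% of kept peaks and 9.41% of peaks gained and found at 72 h. The members made up 46.3% of the 120 h peaks and 35.6% of their length, 7.65 Mb. By quartiles of width over the 120 h list, members were 65.2% of the narrowest peaks (146 to 211 bp), 53.6% and 40.4% of the next classes and 25.7% of the widest (532 bp or more). A narrow peak has fewer bases with which to meet a peak of another list, so the rule itself bears on this comparison. Peaks found in a single list were narrow in every list: their median width was 197 bp in E2, and 197, 178 and 184 bp in the lists of 24, 40 and 72 h, below the members' 257 bp.

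**Figure D1:**
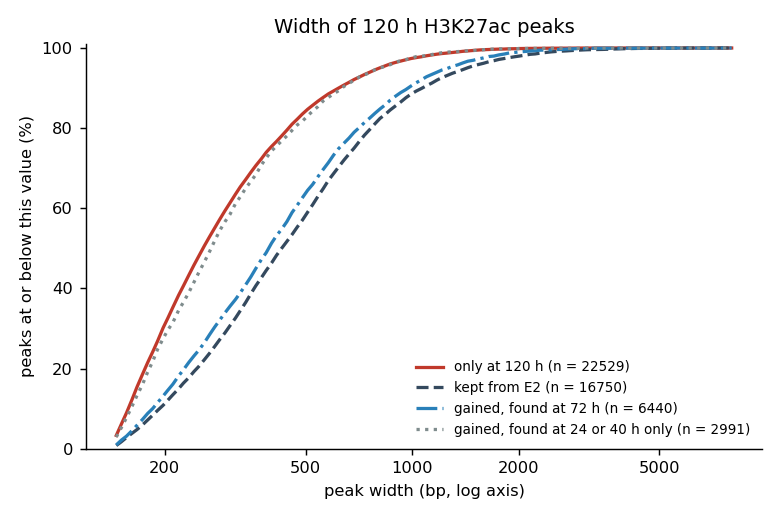
Share of 120 h H3K27ac peaks (vertical axis, percent) at or below a given width (horizontal axis, bp, logarithmic) in the 4 classes of peaks. The curve of the 22529 members lies to the left, with a median of 257 bp against 428.5 bp for peaks kept from E2, and runs beside that of the peaks found at 24 or 40 h only.

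The widest members differed in how much H3K27ac the other lists held around them. Their H3K27ac was measured as the bases covered by peaks in the member and 10 kb on either side. The widest, on chromosome 8 from 3665516 to 3669244 (3729 bp), had 953 bp covered in this window in E2, 2238, 903, 238 and 1687 bp in the lists of 24, 40, 56 and 72 h, and 11557 bp at 120 h. Its neighbourhood thus held the mark in every list. The second widest, on chromosome 8 from 74871563 to 74874863 (3301 bp), had 7574 bp covered at 120 h and 0 bp in the other 5 lists, and the nearest kept peak lay 27971 bp away. The third, on chromosome 10 from 59723582 to 59726776 (3195 bp), had 10896 bp without E2, 227 bp in the 72 h list and 0 bp in the rest. These 2 therefore lay in places with little or no H3K27ac in any other list.

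Of the 9 widest members after these, 6 lay close to places acetylated in E2. On chromosome 11 from 74386477 to 74389424 (2948 bp), a kept peak lay 200 bp away, and the window held 779 bp in E2, 1213, 1342, 232 and 1334 bp in the lists of 24, 40, 56 and 72 h, and 6204 bp at 120 h. Those on chromosome 12 from 85513464 to 85516358, chromosome 5 from 142918974 to 142921854, chromosome 6 from 114597874 to 114600558, chromosome 7 from 50913527 to 50916098 and chromosome 15 from 82840320 to 82842786 had a kept peak 536, 1446, 3223, 1351 and 181 bp away. In contrast, a member of 2605 bp on chromosome 6 from 53658208 to 53660812 lay 195659 bp from the nearest E2 peak, with 0 bp covered around it in the other 5 lists and 8548 bp at 120 h. The member on chromosome 10 from 116724223 to 116727011 (2789 bp) had 14125 bp around it without E2, 1321 bp in the 72 h list and 0 bp in the other 4. The last of the 9, on chromosome 8 from 119822393 to 119825135 (2743 bp), had 40 bp around it in E2, 290 bp in the 40 h list, 6306 bp without E2 and 0 bp in the other lists. None of the 12 widest members overlapped H3K27me3 in any of the 5 H3K27me3 lists.

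Most members lay within reach of other members. Joined wherever the gap was no larger than the stitching distance customary for super-enhancers, they formed 7041 groups, of which 2978 were single peaks. Groups of 3 or more held 16651 members (73.9%), where 78.5% of all 120 h peaks lay in such groups of the whole list, a joining that takes in more peaks. Joined only within their own class, 42.5% of kept peaks, 44.1% of 72 h gains and 16.3% of peaks found at 24 or 40 h only lay in groups of 3 or more, but these classes hold fewer peaks, and the part of their number in this was not tested. Groups of 20 or more numbered 67 and held 1914 members (8.50%). The gap between neighbouring members had a median of 1803 bp, and 43.1% of gaps were at most 1 kb. Bunching depended on the unit counted: with the peaks of each list within 1 kb merged first, 7282 regions were only at 120 h and 22.1% of them lay in groups of 3 or more.

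Most members shared their neighbourhood with peaks of the other classes, and 1 in 4 did not. When all 120 h peaks were joined in the same way, 12508 members (55.5%) stood in a group with a peak kept from E2 and 11427 (50.7%) in a group with a peak gained and found at 72 h. Groups made of members alone held 5648 (25.1%), and 3079 of these were in groups of 3 or more, of which there were 636. The longest such group had 48 peaks.

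Over bins of 100 kb, members occupied 5006 bins, and 595 bins with 10 or more held 9208 of them (40.9%). The number of such bins depended on the unit and the length of the lists: it was 327 with peaks within 1 kb counted as present, 172 with peaks at or above the median width, 108 with lists of equal length and 8 with peaks within 1 kb merged. These 595 bins held 27.6% of the 120 h list but 9.98, 10.5, 10.2, 15.2 and 15.4% of the E2, 24 h, 40 h, 56 h and 72 h lists. The bins were picked for their members, so these shares are a description. Of the 595, 112 (18.8%) had no E2 peak, and 26, with 404 members, had no peak in any of the 4 lists. Counted with all bins, 679 bins with 1887 members had none.

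The 3 densest bins held almost no peak of the other lists. The first, on chromosome 3 from 90400001 to 90500000, held 49 members among 50 peaks at 120 h, 1 peak each in the E2 and 40 h lists and 0 in the other 3. The next were neighbours on chromosome 12, from 25900001 to 26000000 with 49 members and from 26000001 to 26100000 with 47, in which the other 5 lists had at most 1 peak each. In each of these 3 bins every restored culture thus had at most 1 peak. Other bins were partly filled at 72 h. The bin on chromosome 2 from 117700001 to 117800000 had 46 members among 52 peaks, with 6 peaks in the 72 h list, 1 in that of 40 h and 0 in the other 3. That on chromosome 10 from 116700001 to 116800000 had 42 members among 52, with 12 peaks at 72 h and 0 in the other lists.

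The remaining 3 of the 8 densest bins differed in what stood there in E2. The bin on chromosome 13 from 13600001 to 13700000 held 41 members and had peaks in every list: 5 in E2, and 8, 6, 2 and 15 in those of 24, 40, 56 and 72 h. That on chromosome 9 from 110900001 to 111000000 held 39 members, with 2 peaks in E2 and 1 or 2 in each other list. The bin on chromosome 16 from 36300001 to 36400000 was filled by members alone: 38 peaks at 120 h and 0 in the other 5 lists. H3K27me3 appeared in 2 of the 8 bins and only at 120 h, over 1432 bp in the bin on chromosome 16 and 1013 bp in that on chromosome 10. The members of these bins had median widths between 238.5 and 383 bp, where the median over all members was 257 bp.

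**Figure D2:**
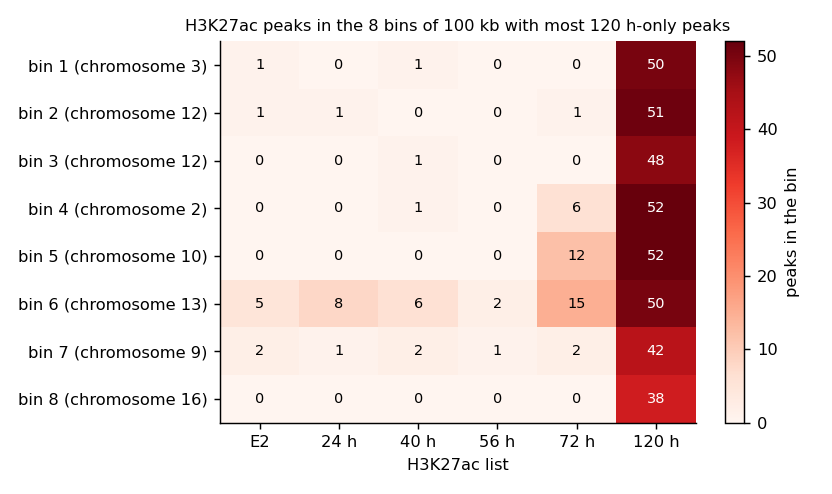
Number of H3K27ac peaks (colour and printed count) of each of the 6 lists (horizontal axis) in the 8 bins of 100 kb with most members (vertical axis, in order of members). The 120 h list holds between 38 and 52 peaks in each bin, and the next highest count in any bin is 15, at 72 h in the bin on chromosome 13.

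The largest groups, which could cross bin borders, fell in part into the same places. The largest, on chromosome 2 from 117738559 to 117855046, held 75 members among 100 peaks, with 4 peaks in E2 and 7, 9, 4 and 32 in the lists of 24, 40, 56 and 72 h. The second largest group, on chromosome 12 from 25924100 to 26042042, held 71 members among 73 peaks, 1 peak each in the E2, 24 h and 72 h lists, and 0 in the other 2. On chromosome 15 from 59537674 to 59661790, 55 members lay among 64 peaks, with 3 peaks in E2 and 7, 3, 2 and 7 in the lists of 24, 40, 56 and 72 h. The group of 48 on chromosome 3 from 90460083 to 90513987 was the longest made of members alone, with 0 peaks in the other 5 lists over 53905 bp and 26658 bp covered by members. H3K27me3 covered 1106 bp of this stretch at 120 h and 0 bp in its other 4 lists.

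Members lay farther from acetylation kept from E2 than the other classes did at short range. A kept peak stood within 10 kb of 42.8% of members (42.1 to 43.5), against 54.5% of all 120 h peaks, counting for a kept peak the nearest other one. The share was 49.3% for peaks gained and found at 72 h, 66.1% for those found at 24 or 40 h only and 70.3% for kept peaks themselves. Members minus 72 h gains was -6.47 percentage points (-7.85 to -5.09), and members were lower on 19 of 20 chromosomes. Within 1 kb the shares were 14.5% and 25.8%, a difference of -11.3 points (-12.4 to -10.1), lower on 20 of 20. Within 100 kb they were 86.0% and 85.1%, with a difference of 0.876 points (-0.0893 to 1.87) and members higher on 12 of 20. The gap between the classes was thus at short range, and at 100 kb the interval included 0. The rule moves any peak that meets a 24, 40 or 72 h peak out of the members and into a comparison class. It thus bears on this comparison, and the differences are a description.

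The median distance to a kept peak was 14747 bp for members, 10493 bp for 72 h gains, 2538 bp for peaks found at 24 or 40 h only and 412 bp between kept peaks. The difference held at each width: from the narrowest to the widest quartile, 41.1, 42.1, 44.3 and 46.3% of members were within 10 kb, against 48.2, 47.1, 48.8 and 51.6% of 72 h gains. The share of members differed by chromosome from 31.7% on chromosome 16 to 55.7% on chromosome 11.

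**Figure D3:**
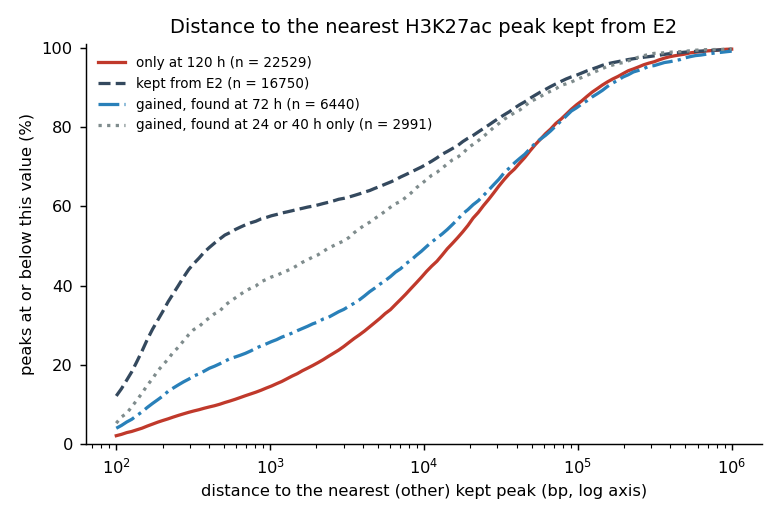
Share of peaks (vertical axis, percent) whose nearest peak kept from E2 lies at or below a given distance (horizontal axis, bp, logarithmic) for the 4 classes of 120 h H3K27ac peaks. Members are lowest at short range, with 14.5% within 1 kb against 25.8% of peaks gained and found at 72 h, and the 2 curves meet towards 100 kb.

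Seen from the E2 list, members lay more often near E2 peaks that were still listed at 120 h than near those that were not. Of the 17728 E2 peaks kept at 120 h, 42.0% (41.3 to 42.7) had a member within 10 kb, against 18.8% (18.1 to 19.6) of the 10148 E2 peaks lost at 120 h. The difference was 23.2 points (22.1 to 24.2), with kept peaks higher on 20 of 20 chromosomes. Within 1 kb the shares were 15.6% and 3.84%, a difference of 11.7 points, and within 50 kb 68.2% and 49.98%, a difference of 18.3 points. E2 peaks no longer listed at 120 h thus had a member nearby less often at each of these distances. A kept E2 peak has a 120 h peak at its place by definition, and 78.5% of all 120 h peaks lay in groups of 3 or more. The definitions themselves thus bear on this comparison, and the difference is a description.

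Split by distance to any E2 peak, 13.5% of members lay within 1 kb, 32.0% from 1 to 10 kb, 43.3% from 10 to 100 kb and 11.2% (2514 peaks) farther than 100 kb. Median widths in these classes were 249, 265, 258 and 244 bp, so remote members were as narrow as those at the shoulder of an E2 peak. Of the remote members, 66.9% still stood in groups of 3 or more. The widest of them after that on chromosome 6 was one of 2111 bp on chromosome 2, which had another of 1812 bp nearby, from 27948954 to 27951064 and from 27937206 to 27939017, with 598 bp around each in the 24 h list, 664 bp in that of 72 h and 0 bp in E2 and in the other 2 restored cultures. On chromosome 15 from 74963854 to 74965722 (1869 bp) the window had 938 bp at 72 h, and on chromosome 5 from 128263552 to 128265265 (1714 bp) it had 0 bp in every list but that of 120 h, with 3890 bp. On chromosome 19 from 58195026 to 58196729 (1704 bp), a group of 41 members, it had 213 bp in the 72 h list and 8482 bp without E2.

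The 56 h list took no part in the rule, yet it was nearly exhausted by it. Of its 6356 peaks, 195 lay outside the E2, 24 h, 40 h and 72 h lists, and 59 overlapped a member. A 56 h peak was found at 61 members (0.271%, 0.207 to 0.348), against 7.89% of all 120 h peaks, 12.2% of kept peaks, 21.5% of 72 h gains and 11.97% of peaks found at 24 or 40 h only. Since so few 56 h peaks lay outside the 4 lists, the rule itself holds the members' share low, and nothing is read from the order of the classes. With the 24 h list left out of the rule it was 0.743%. In all, 22468 peaks were in none of the other 5 H3K27ac lists. The widest member with a 56 h peak, on chromosome 19 from 32349420 to 32351341 (1922 bp, 146 bp of it covered at 56 h), was in a group of 30 members with 1154 bp around it at 72 h and 169 bp in E2. The second such member, on chromosome 16 from 4968804 to 4969710 (907 bp), had 157 bp covered at 56 h, and the one on chromosome 4 from 144883765 to 144884574 (810 bp) had 310 bp at 56 h with 0 bp around it in E2 and at 24, 40 and 72 h.

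H3K27me3, which the rule did not use, was rare at the members in every list. In E2, 76 members (0.337%, 0.266 to 0.422) overlapped an H3K27me3 peak, where 0.226% of all 120 h peaks did. In the 24 h list it was 83 (0.368%, against 0.228%), in that of 40 h 56 (0.249%, against 0.158%), in that of 72 h 62 (0.275%, against 0.207%) and without E2 161 (0.715%, 0.609 to 0.833, against 0.542%). The H3K27me3 lists in the same order covered 5.47, 9.10, 6.08, 8.06 and 12.9 Mb. Per covered Mb the members numbered 13.9, 9.12, 9.21, 7.70 and 12.48, so that relative to the length of the list the value at 120 h was above those of the restored cultures and below that of E2. Kept peaks numbered 4.75, 2.20, 2.96, 4.47 and 5.81 per covered Mb, so their value at 120 h was also above those of the restored cultures, and above that of E2. Within 10 kb of H3K27me3 lay, in the same order, 3.03, 3.57, 2.82, 3.58 and 6.36% of members, against 2.70, 3.58, 2.98, 3.71 and 5.72% of kept peaks. For 72 h gains the shares were 1.10, 1.55, 1.21, 1.615 and 3.73%. No interval was computed for these shares, and no order of members and kept peaks is read from them.

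Members overlapped H3K27me3 more often than peaks kept from E2 in 4 of the 5 lists, and in that of 72 h the interval of the difference included 0. In order of withdrawal from E2 to 120 h the difference was 0.182 points (0.0832 to 0.280), 0.249 (0.153 to 0.347), 0.141 (0.0566 to 0.225), 0.0603 (-0.042 to 0.158) and 0.267 (0.115 to 0.416). Members were higher on 13, 15, 11, 11 and 13 of 20 chromosomes and lower on 5, 3, 7, 8 and 6. Against 72 h gains, of which 8 of 6440 overlapped H3K27me3 in E2 and 22 at 120 h, the difference was 0.213 points (0.0747 to 0.318) in E2 and 0.373 (0.170 to 0.539) at 120 h. The counts are small, and the order turned among the narrowest peaks in the last 2 lists. There 0.251% of members and 0.354% of kept peaks overlapped H3K27me3 at 72 h, and 0.679% and 1.02% at 120 h, while among the widest peaks it was 0.931% and 0.358% at 120 h.

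**Figure D4:**
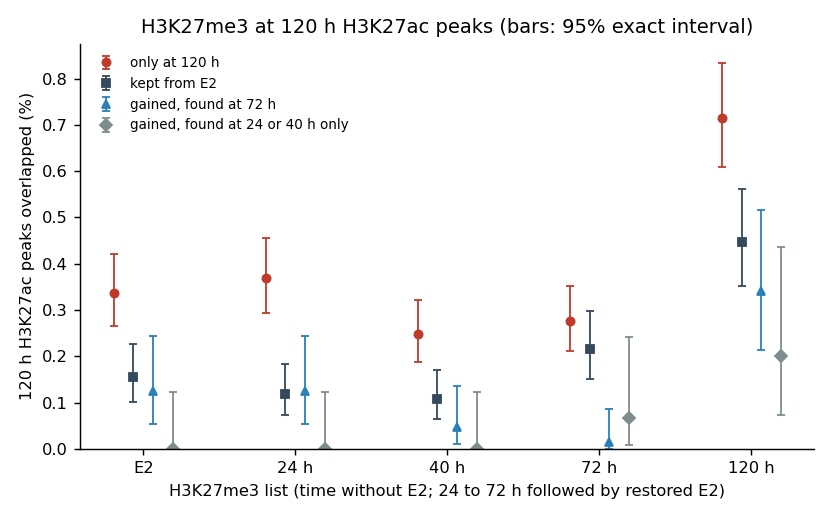
Share of 120 h H3K27ac peaks (vertical axis, percent, with exact 95% intervals over peaks) that overlap H3K27me3 in each of its 5 lists (horizontal axis), for the 4 classes of peaks. Members run from 0.249% at 40 h to 0.715% at 120 h and are the highest class in each list, with intervals that overlap those of kept peaks at 72 h.

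The 213 members (0.945%) that met H3K27me3 in at least 1 list differed in which lists held it. H3K27me3 was present only at 120 h at 94 of them, in all 5 lists at 34, and in E2 but not at 120 h at another 34. At 48 it was listed in E2, at 24 h or at 40 h and at neither 72 nor 120 h. H3K27me3 was listed at 120 h and not in E2 at 119 members, from a list that covered 12.9 Mb at 120 h and 5.47 Mb in E2, and the part of list length in these counts was not tested. Of the 161 members with both marks at 120 h, 75 lay wholly inside an H3K27me3 peak. They touched 124 of the 6927 H3K27me3 peaks of that list (1.79%). In a list from many cells, 2 marks over the same bases can come from different cells or alleles, which cannot be told apart here.

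Of the 6 widest members with H3K27me3 in E2 and not at 120 h, 5 lay over 10 kb from any E2 H3K27ac peak. Over all members, 43.3% lay from 10 to 100 kb and 11.2% farther than 100 kb from one. The 5 include neighbours in 1 group on chromosome 8, of which that from 11403330 to 11403828 had 10 bp of H3K27me3 in E2. The widest, on chromosome 10 from 94405824 to 94407269 (1446 bp), had 565 bp of H3K27me3 in E2, 1229 bp in the 24 h list and 0 bp in the other 3, and lay 114167 bp from the nearest E2 H3K27ac peak. The second of them, on chromosome 10 from 6605289 to 6606175 (887 bp), had 331 bp in E2, 419 bp in the 24 h list and 0 bp in the other 3, and stood alone. On chromosome 8 from 11404127 to 11404900 (774 bp), H3K27me3 covered the whole member in E2 and 488 bp of it at 24 h. In these 3 the 40, 72 and 120 h lists held no H3K27me3. The exception in position was a member of 625 bp on chromosome 3 from 131152576 to 131153200, 103 bp from a kept peak and in a group of 22, with 525 bp in E2 and 212 bp at 24 h.

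The widest member that met H3K27me3 at 120 h and not in E2, on chromosome 12 from 112762019 to 112764162 (2144 bp), had 358 bp covered. Both next members, of 1 group of 13 on chromosome 19, from 4058652 to 4060006 and from 4067110 to 4068213, had 5 and 1007 bp. On chromosome 4 from 151597441 to 151598335 (895 bp) H3K27me3 covered 721 bp. At each of these 4 the 24, 40 and 72 h lists had no H3K27me3, so the mark was listed there only without E2.

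Members were spread over all chromosomes in similar proportion. They were between 39.6% of the 120 h peaks on X and 50.8% on chromosome 12, with 50.6% on chromosome 1 and 41.6% on chromosome 11. Their median width by chromosome ran from 233 bp on X to 278 bp on chromosome 7. H3K27me3 at 120 h met 17 members each on chromosomes 4 and 8, 15 on chromosome 19, and 0 on chromosomes 3 and X.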

How the data were processed

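The deposited files used were 11 lists of peak coordinates, 6 for H3K27ac and 5 for H3K27me3, which hold chromosome, start and end and no score. Bowtie2 2.0, BWA and MACS2 2.0 are named, with the builds mm9 and mm10, per the submitters' processing notes; the sources used here do not say which made which list, at what threshold, or with which input. The lists were taken as mm9, since the last peak of the 11 lists pooled on chromosome 7 ended at 152474915. The last GRCm38.p6 gene there ends at 145324059. This check does not show the build of each single list, and the overlaps of H3K27ac with H3K27me3 rest on a shared build. H3K4me3, V5 and AM lists were not compared. All peaks lay on chromosomes 1 to 19 and X. Starts were read as 0-based and are printed 1-based. Overlaps, distances (gap between peak edges), groups and bins (by peak midpoint) were computed with Python 3.11.15, numpy 2.4.6 and pandas 2.3.3, and intervals with scipy 1.17.1; the interval code was tested on simulated data. Regions were named by rule: the 12 widest members, the 8 fullest bins, the 6 largest groups, and the 6 widest with H3K27me3 only in E2 or only at 120 h of those 2 lists, with a 56 h peak, or over 100 kb from an E2 peak, of which some are described; groups joined neighbours at the stitching distance of super-enhancer analysis, and chromosome 18 was left out of the naming. Members, lists and alternatives were chosen with earlier results of these data known. The equal-length comparison was extended to the other lists' own peaks after the data were seen.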

Additional observations from a re-analysis of the deposited data

How the results depend on the processing

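Each library is single and no source used here gives its depth, so differences in sensitivity between lists cannot be told apart from differences between conditions. The rule was varied in 9 ways. Requiring 50% of a peak covered gave a median width of 286 bp, 30.5% within 10 kb of a kept peak, 76.7% in groups of 3 or more and 1.28% with a 56 h peak. Counting peaks within 1 kb as present gave 34.0%, 69.0% and 0.143% for the last 3 of these, 327 bins with 10 or more members and 0.448% with H3K27me3 in E2. This setting removes members closer than 1 kb to an E2 peak by rule. The peaks called kept were drawn anew wherever the overlap or the peaks of the lists were changed, so those shares within 10 kb have different references. Merging peaks within 1 kb, which changes what is counted, gave 7282 regions of 354 bp (median), 30.0% within 10 kb, 22.1% in groups, 8 bins, and 0.632% and 1.17% with H3K27me3 in E2 and at 120 h. Peaks at or above the median width gave 11468 members of 482 bp, 30.5% within 10 kb, 59.2% in groups, 172 bins, 0.436% with H3K27me3 in E2 and 0.480% with a 56 h peak. Lists of equal length gave 8869 members of 466 bp, 41.1%, 55.8%, 108 bins, 0.462% and 0.552% for the same measures. Without the 24 h list in the rule the share within 10 kb was 44.1% and that with a 56 h peak 0.743%; without the 72 h list the median width was 268 bp, 42.0% lay within 10 kb, 76.6% in groups and 0.380% had a 56 h peak. Adding the 56 h list or leaving out the 40 h list kept each of these within its interval, or within 1.5 times for counts. Distances of 1 and 50 kb gave 14.5% and 74.5% in place of 42.8%, any E2 peak 45.5%, gaps of 5 and 50 kb 63.6% and 87.8% in groups, and 50% cover by H3K27me3 0.568% at 120 h. Causes were not tested. Of the 35 named members, 29 were still members with the 56 h list added, 20 with peaks within 1 kb counted as present and 13 after merging; under the other 6 settings a wide member stays one by construction. Of the 14 named bins and groups, 0 kept their number of members within 1.5 times after merging, 0 with lists of equal length and 1 with peaks at or above the median width.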
